A study of Homo sapiens with 2 samples.

Results

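The mRNAs of 51 genes of the DNA replication origin and fork machinery were followed in the RNA that co-precipitated with LRPPRC. The genes were taken by name, as members of the machinery rather than by a threshold on FPKM, and each had exactly 1 of the 16770 gene names in the deposited table. LRPPRC is a leucine-rich pentatricopeptide repeat protein that binds RNA in mitochondria and in the cytoplasm. Wild-type A549 cells, a lung adenocarcinoma line, were lysed, and RNA recovered with anti-LRPPRC antibody was sequenced (RIP-seq). Both libraries belong to the same condition, LRPPRC RIP, with no treatment. The study calls them biological replicates and the series record calls them technical, so the spread between them may be technical only.

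The values are FPKM, fragment counts scaled by the authors to transcript length and to the number of mapped fragments. FPKM allows levels of different genes to be compared per length of transcript, but it is the level in the precipitate, not a ratio to input or to IgG, which were not analysed here. Therefore a high value can accompany an abundant mRNA as well as a strongly bound one, and these cannot be told apart, nor can more cells in S phase from more mRNA per cell. With 1 condition no test between conditions was possible, and a difference between 2 genes is described by whether their values in the 2 libraries overlap.

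Replication starts at origins, where the origin recognition complex (ORC), CDC6 and CDT1 load the ring of MCM2 to MCM7 onto DNA in G1 phase. The kinase CDC7 with its activator DBF4 then allows CDC45 and the GINS complex to join the ring and form the active CMG helicase. DNA polymerase alpha-primase makes the primers, polymerases epsilon and delta extend them on the leading and lagging strands, the clamp PCNA and its loader RFC hold the polymerases on DNA, RPA covers single strands, and FEN1, LIG1, DNA2 and RNase H enzymes finish the lagging strand. Many of these genes are transcribed at the G1/S transition under E2F factors, the transition that CDK6 promotes and that the study addresses.

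The 90 bases that open the coding sequence are shown for the highest subunit and a low partner in DNA polymerase epsilon, MCM2-7 and RPA, the 3 complexes with the widest range between subunits in the means. In replicate 1, and with FPKM multiplied by transcript length, ORC was wider than MCM2-7. They identify the mRNAs in which the contrast was measured. Bases are from GENCODE 44 canonical transcripts on GRCh38, 5′ to 3′, and capitals mark the start codon.
POLE3: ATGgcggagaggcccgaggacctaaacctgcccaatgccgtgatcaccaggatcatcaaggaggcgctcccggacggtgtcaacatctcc
POLE4: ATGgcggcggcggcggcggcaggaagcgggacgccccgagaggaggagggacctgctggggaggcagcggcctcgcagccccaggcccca
MCM7: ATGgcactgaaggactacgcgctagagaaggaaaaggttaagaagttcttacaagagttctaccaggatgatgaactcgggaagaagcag
MCM5: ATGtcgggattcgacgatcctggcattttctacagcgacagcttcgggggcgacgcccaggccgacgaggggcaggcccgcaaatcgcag
RPA1: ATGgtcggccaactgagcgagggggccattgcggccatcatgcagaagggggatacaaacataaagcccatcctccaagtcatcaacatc
RPA3: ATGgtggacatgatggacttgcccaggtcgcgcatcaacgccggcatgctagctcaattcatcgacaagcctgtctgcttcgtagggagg

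The stretch of POLE3 lies in exons 2 and 3 of 5 at chr9:113410117-113410293 on the minus strand, and that of POLE4 in exon 1 of 4 at chr2:74958680-74958769 on the plus strand. MCM7 reads across exons 1 and 2 of 15 at chr7:100100035-100101294 on the minus strand, and MCM5 in exon 2 of 17 at chr22:35400439-35400528 on the plus strand. RPA1 reads across exons 1 to 3 of 17 at chr17:1830094-1843925 on the plus strand, and RPA3 in exon 5 of 8 at chr7:7640329-7640418 on the minus strand. G and C make up 61.1% of the stretch of POLE3, 78.9% of POLE4, 45.6% of MCM7, 64.4% of MCM5, 54.4% of RPA1 and 56.7% of RPA3.

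Replication mRNAs covered a range of 236 times in LRPPRC RIP, between RPA3 at 0.821 ± 0.143 FPKM and POLE3 at 194 ± 9.44 FPKM (SD, n = 2). The median of the 51 was 10.3 FPKM, against 6.81 FPKM for the 10441 named genes with at least 1 FPKM in both libraries. Of the 51 members, 50 passed that filter, all but RPA3, and 11 had a mean above FPKM 30, the level above which the study lists transcripts as bound. These 11 are 22.0% of the 50, against 13.6% of the named genes. A further 15 lay between 10 and 30 FPKM and 25, RPA3 among them, below 10. Of the named protein-coding genes with at least 1 FPKM in both libraries, 67.6% of those with fewer than 1000 coding bases were below 10. Of the longer ones 58.8% were. The gap to the named genes was narrower at other thresholds. Above FPKM 20 were 13 of the 51 members, against 21.1% of the named genes, and above FPKM 50 were 4, against 6.89%. Together the members took 0.524% of all FPKM in replicate 1 and 0.533% in replicate 2. POLE3 alone gave 18.1% of the members' sum in replicate 1 and 19.3% in replicate 2.

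**Figure D1:**
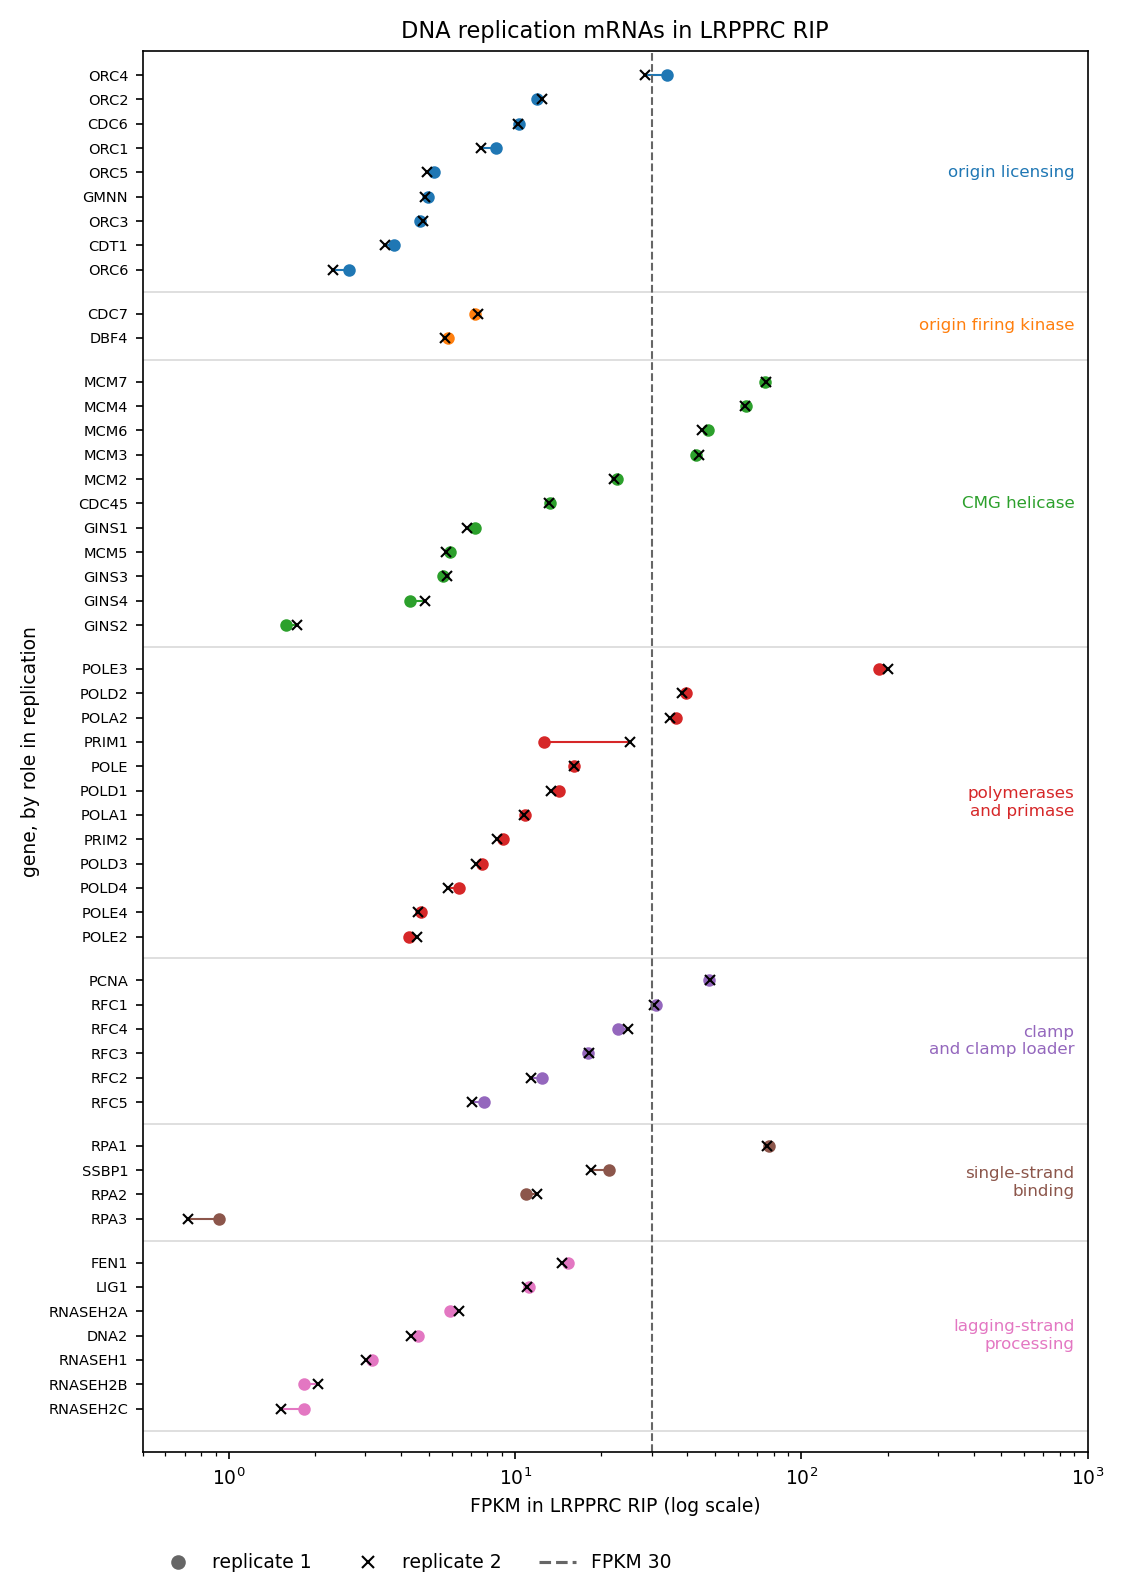
The 51 DNA replication genes (y axis) with their FPKM in LRPPRC RIP (x axis, log scale), grouped by role and ordered by mean within each role. Circles are replicate 1, crosses replicate 2, and the dashed line is FPKM 30, which 11 means exceed. The line joining the 2 values is visibly long for PRIM1.

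Among the licensing factors, ORC4 stood apart. Its mRNA had 33.9 FPKM in replicate 1 and 28.3 FPKM in replicate 2, on both sides of FPKM 30. The other subunits of ORC, the complex that marks origins, were lower in both libraries. ORC2 had 11.9 and 12.4 FPKM, ORC1 had 8.56 and 7.57 FPKM, ORC5 had 5.19 and 4.93 FPKM, ORC3 had 4.67 and 4.75 FPKM and ORC6 had 2.62 and 2.32 FPKM. The order ORC4, ORC2, ORC1, ORC5, ORC3, ORC6 was the same in both libraries with no overlap between neighbours. ORC4 thus took 50.7% of the ORC sum in replicate 1 and 47.0% in replicate 2. Of the 6547 bases of its canonical transcript on chromosome 2, 5117 are 3′ UTR, the longest 3′ UTR among the members. That transcript shares 427 exon bases with ACVR2A on the opposite strand, which had 1.97 and 2.06 FPKM.

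The loaders CDC6 and CDT1 bring MCM2-7 to ORC, and geminin (GMNN) holds CDT1 inactive after licensing. CDC6 had 10.4 and 10.2 FPKM, above CDT1 at 3.77 and 3.50 FPKM by 2.83 times in the means. The inhibitor GMNN, at 4.97 and 4.85 FPKM, was 1.35 times as high as CDT1, with no overlap. The median of the 9 licensing mRNAs was 5.06 FPKM, and 1 of them (11.1%) was above 30, against 13.6% of the named genes. CDC7, the kinase that fires licensed origins, had 7.24 and 7.39 FPKM. Its activator DBF4 had 5.82 and 5.70 FPKM, below CDC7 in both libraries. Neither reached FPKM 30.

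The helicase role, which holds MCM2-7, CDC45 and GINS, had 4 of 11 members above FPKM 30, all of them MCM genes. These were 36.4% of the role, against 33.3% of the clamp and loader and 13.6% of the named genes. MCM7 had 74.6 and 75.1 FPKM, MCM4 had 64.0 and 63.4 FPKM, MCM6 had 47.1 and 45.0 FPKM and MCM3 had 42.884 and 44.001 FPKM. MCM2, at 22.7 and 22.2 FPKM, was below the threshold in both libraries. MCM5 was far lower, with 5.93 and 5.71 FPKM. The ring contains 1 copy of each subunit, whereas the mRNA of MCM7 was 12.9 times as high as that of MCM5 (12.6 times in replicate 1 and 13.1 times in replicate 2). The order of the 6 was the same in both libraries, without overlap.

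CDC45 had 13.3 and 13.2 FPKM, between MCM2 and MCM5. GINS, the 4-subunit partner, was low throughout. GINS1 had 7.24 and 6.79 FPKM, GINS3 had 5.60 and 5.76 FPKM, GINS4 had 4.28 and 4.84 FPKM and GINS2 had 1.58 and 1.74 FPKM. All of GINS summed to 18.7 FPKM in replicate 1 and 19.1 FPKM in replicate 2, against 257 and 255 FPKM for MCM2-7. Only GINS3 overlapped MCM5 in its values. The whole role had a median of 13.2 FPKM.

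DNA polymerase epsilon had the highest replication mRNA and 2 low ones. POLE3, a small histone-fold subunit that also belongs to a chromatin remodeling complex, had 187 FPKM in replicate 1 and 200.2 FPKM in replicate 2. It exceeded 99.0% of the 10441 named genes with at least 1 FPKM in both libraries. POLE4, its histone-fold partner in the polymerase, had 4.67 and 4.57 FPKM, and POLE3 was 41.9 times as high in the means. The catalytic subunit POLE had 16.08 and 16.06 FPKM, and the B subunit POLE2 had 4.28 and 4.54 FPKM. Thus POLE3 took 88.2% of the sum of the complex in replicate 1 and 88.8% in replicate 2. The coding sequences of both histone-fold subunits are short, 441 bases in POLE3 and 351 bases in POLE4, but the canonical transcript of POLE3 carries 1579 bases of 3′ UTR against 709 in POLE4.

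**Figure D2:**
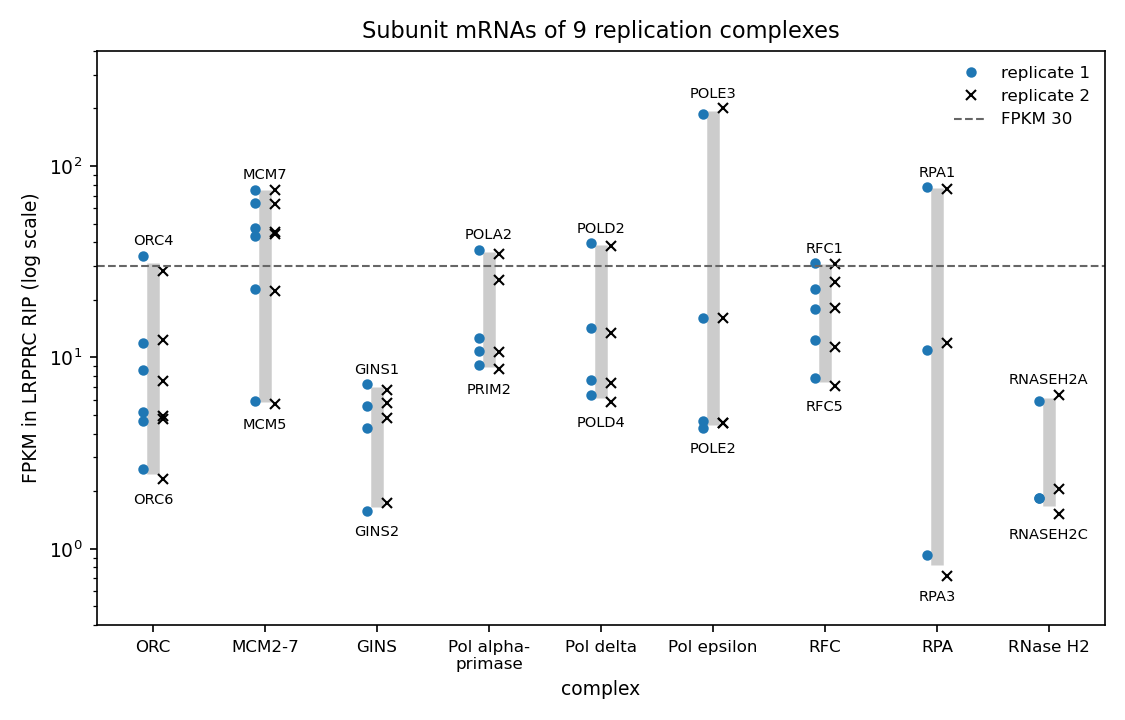
FPKM in LRPPRC RIP on a log scale (y axis) of the subunits of 9 replication complexes (x axis). Circles are replicate 1, crosses replicate 2, gray bars span the lowest to the highest mean, the dashed line is FPKM 30, and names mark the highest and lowest subunit. The bars are longest for RPA and DNA polymerase epsilon, whose subunits differed by 93.2 and 43.9 times.

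In DNA polymerase delta the regulatory subunit POLD2 led, with 39.4 and 38.2 FPKM. The catalytic subunit POLD1 had 14.3 and 13.3 FPKM. The accessory subunits POLD3, with 7.66 and 7.30 FPKM, and POLD4, with 6.37 and 5.84 FPKM, were lower. The same held for DNA polymerase alpha, where the regulatory subunit POLA2 had 36.5 and 34.9 FPKM and the catalytic subunit POLA1 had 10.8 and 10.7 FPKM. In all 3 replicative polymerases, a noncatalytic subunit had the highest mRNA, by 2.81 times over the catalytic one in delta, 3.31 times in alpha and 12.0 times in epsilon. The canonical exons of POLA2 share 1978 bases, those of POLD1 426 bases and those of POLD4 650 bases with another annotated gene on the same strand that has no row under its current name. How the authors' quantification divided such reads was not tested.

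Primase was the exception in agreement between the libraries. PRIM1, the catalytic subunit of primase, had 12.6 FPKM in replicate 1 and 25.3 FPKM in replicate 2, a difference of 2.01 times. PRIM2, the large subunit, had 9.08 and 8.67 FPKM. PRIM1 was above PRIM2 in both libraries, by 1.39 times in replicate 1 and 2.92 times in replicate 2, so the ratio between the primase subunits is not fixed by these data. The gene of PRIM1 on chromosome 12 overlaps that of NACA on the same strand. NACA, which encodes a subunit of the nascent polypeptide-associated complex, had 55.8 FPKM in replicate 1, where PRIM1 was low, and 44.7 FPKM in replicate 2. Their canonical transcripts share no exon bases, and 362 exon bases of PRIM1 are shared with another same-strand gene that has no row under its current name. The part of these overlaps in the difference was not tested.

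The median of the 12 polymerase and primase mRNAs was 12.3 FPKM. Above 30 were 3 of them (25%), POLE3, POLD2 and POLA2, against 13.6% of the named genes. Without POLE3, or without PRIM1, the median was 10.8 FPKM.

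The clamp and its loader had the highest median of the roles, 20.9 FPKM. PCNA, the sliding clamp, had 47.7 and 48.0 FPKM. RFC1, the large subunit of the loader, had 31.0 and 30.7 FPKM, just above FPKM 30 in both libraries. RFC4 had 22.9 and 24.7 FPKM, RFC3 had 17.9 and 18.1 FPKM, RFC2 had 12.4 and 11.4 FPKM and RFC5 had 7.76 and 7.06 FPKM. The 5 loader subunits kept this order in both libraries without overlap, and their range, 4.16 times, was narrow beside that of RPA. GENCODE 44 names 3 pseudogenes of PCNA and 1 each of RFC3 and RFC5. Over all members it names 20 pseudogenes of 12 genes, RPA3 and POLE4 among them. None of these pseudogenes has a row, and the treatment of shared reads was not given in the sources used here. RFC5 overlaps WSB2, at 128 and 93.0 FPKM, on the opposite strand with no canonical exon bases in common.

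RPA, the heterotrimer that protects single-stranded DNA at the fork, had the widest range of any complex. RPA1, its large subunit, had 77.4 and 75.7 FPKM, which was the second highest mRNA of the 51. RPA2 had 10.9 and 11.9 FPKM, and RPA3, the small subunit, had 0.922 and 0.720 FPKM. RPA1 was thus 83.9 times as high as RPA3 in replicate 1 and 105 times in replicate 2. The canonical transcript of RPA3, 2020 bases long, holds 363 coding bases behind 1172 bases of 5′ UTR and shares 70 exon bases with UMAD1 on the opposite strand. The part of the transcript model in its low FPKM was not tested. SSBP1, the single-strand binding protein of mitochondrial DNA, had 21.3 and 18.4 FPKM, below RPA1 and above RPA2.

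Lagging-strand enzymes were the lowest role, with a median of 4.46 FPKM and none of 7 above 30. Of the named genes 13.6% were above 30, so a count of none among 7 says little. FEN1, the flap nuclease, had 15.3 and 14.6 FPKM, and LIG1, the ligase that seals the fragments, had 11.2 and 11.0 FPKM. FEN1 lies within the span of FADS2 on the same strand, at 52.5 and 54.6 FPKM, with no canonical exon bases in common. FEN1 and LIG1 both bind PCNA, whose mRNA was 3.20 times as high as that of FEN1 and 4.30 times as high as that of LIG1. DNA2, a helicase and nuclease that cuts long flaps, had 4.59 and 4.33 FPKM, and RNASEH1 had 3.16 and 3.01 FPKM. RNase H2 removes ribonucleotides from DNA. Its catalytic subunit RNASEH2A had 5.93 and 6.37 FPKM, RNASEH2B had 1.83 and 2.04 FPKM, and RNASEH2C had 1.84 and 1.52 FPKM. RNASEH2B and RNASEH2C overlapped and changed places between the libraries, the only such case in the 9 complexes. The canonical exons of RNASEH2C share 800 bases with KAT5 on the opposite strand, which had 1.41 and 1.68 FPKM, and those of RNASEH1 share 989 bases with an unlisted gene on the same strand.

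**Figure D3:**
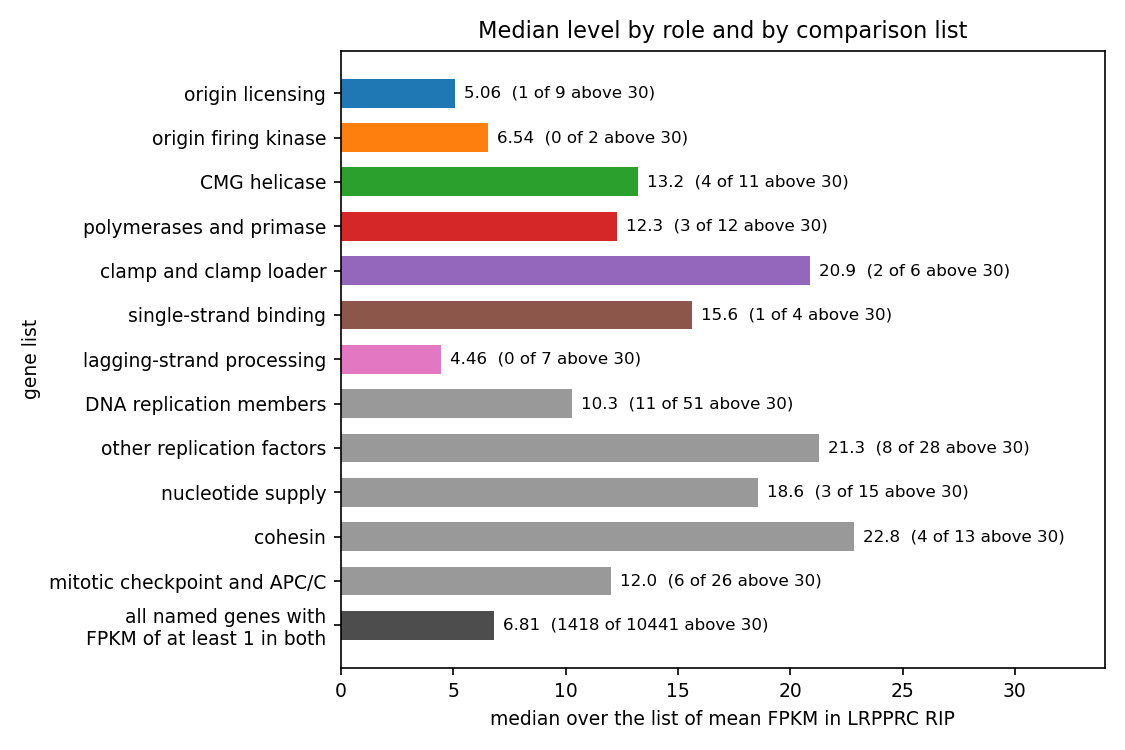
Median FPKM in LRPPRC RIP (x axis) of each replication role, of the 51 members together, of 4 comparison lists and of all named genes with at least 1 FPKM in both libraries (y axis). Each bar is the median over the list of the mean of 2 libraries, and the text gives it with the number of genes above FPKM 30. The clamp and loader (20.9) and the lagging-strand enzymes (4.46) are the ends of the replication roles.

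By median FPKM the roles followed the order clamp and loader, single-strand binding (15.6), helicase, polymerases and primase, firing kinase (6.54), licensing and lagging-strand processing. Each median was similar in the 2 libraries. For example, the clamp and loader had 20.4 in replicate 1 and 21.4 in replicate 2, and the helicase had 13.3 and 13.2. As geometric means the order differed, with polymerases and primase (14.7) above the helicase (14.3), both of them above single-strand binding (10.9), and licensing (6.84) above the firing kinase (6.49). By median, the place of single-strand binding rests on SSBP1, which acts on mitochondrial DNA. Among the RPA genes alone the middle one was RPA2, with a mean of 11.4 FPKM, below the medians of the helicase and the polymerases. The order rests on 2 to 12 genes a role, and every role but the firing kinase spans more than its distance from either neighbour. Helicase mRNAs alone ran between 1.66 and 74.8 FPKM.

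Replication factors outside the list were compared from a list of 28 further genes, among them genes of origin firing, fork protection, chromatin assembly, topoisomerases and mitochondrial DNA replication. Of the 51 members 21.6% had a mean above FPKM 30, against 28.6% of the 28 (8 genes), and the median was 10.3 FPKM in the members against 21.3 FPKM in these. Its highest mRNAs were TOP2A, the DNA topoisomerase II alpha gene, at 73.4 ± 0.295 FPKM, the fork protection factor TIMELESS at 50.8 ± 0.278 FPKM and the helicase activator TOPBP1 at 50.5 ± 1.03 FPKM (SD, n = 2 each). Genes of sister chromatid cohesion and of mitosis were also compared. The median was 22.8 FPKM for 13 cohesin genes, with 4 (30.8%) above 30. It was 12.0 FPKM for 26 genes of the mitotic checkpoint and APC/C, with 6 (23.1%) above 30. Of the named genes with at least 1 FPKM in both libraries, 13.6% were above 30. None of these differences was tested, since genes are not replicates.

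The libraries agreed closely for most replication mRNAs. The median absolute log2 ratio between them, on log2(FPKM + 1), was 0.06 over the 51 members and 0.05 over the named genes, and 41 of the 51 (80.4%) differed by at most 1.1 times, against 76.2% of the named genes. Only PRIM1 differed by more than 1.5 times, 1 of 51 (1.96%), against 1.52% of the named genes and 26 of 2598 named genes (1.001%) with a mean of 10 to 30 FPKM. After PRIM1, RPA3 (1.28 times), RNASEH2C (1.21), ORC4 (1.20) and SSBP1 (1.16) differed most. Of the 51, 34 (66.7%) were higher in replicate 1, against 56.2% of the named genes. Ordered by mean, 29 of the 50 pairs of neighbours had values that did not overlap, among them every pair down from POLE3 to ORC4. In the other 21 pairs, such as ORC4 and RFC1, the values overlapped. Genes were sorted on these same values, with 2 libraries each that may be technical replicates. A lack of overlap therefore describes these libraries and does not establish an order. Some pairs without overlap were close, such as PCNA (47.7 and 48.0 FPKM) and MCM6 (47.1 and 45.0 FPKM). The same share for all named genes is not given here.

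**Figure D4:**
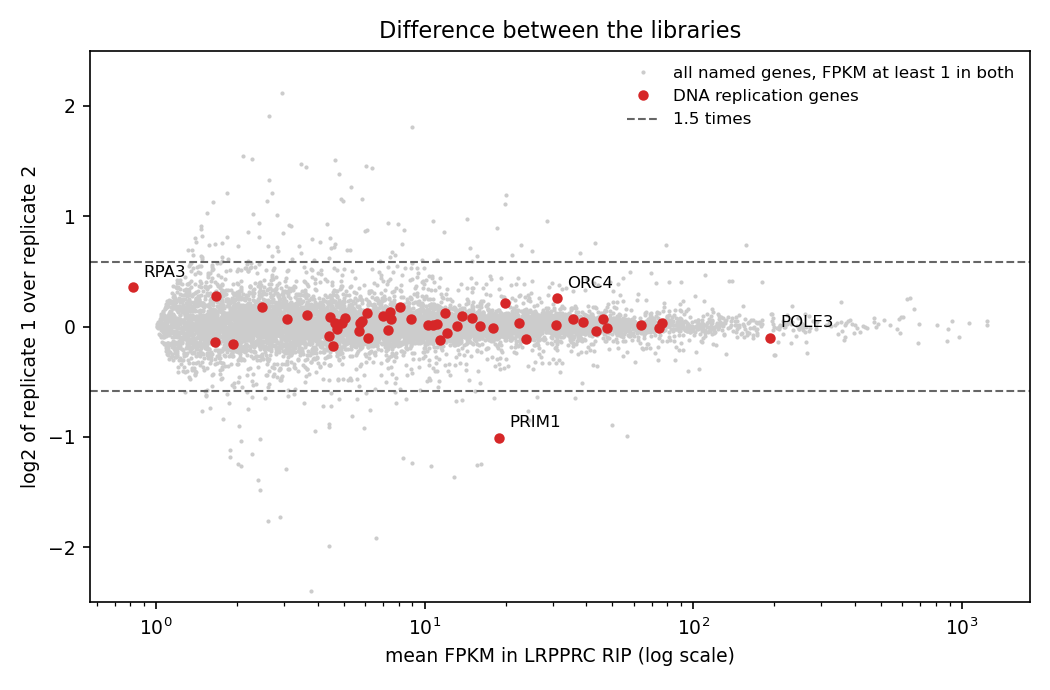
log2 of the FPKM in replicate 1 over replicate 2 (y axis) against mean FPKM on a log scale (x axis). Gray points are the named genes with at least 1 FPKM in both libraries, red points the 51 replication genes, and dashed lines mark 1.5 times. Of the red points PRIM1, at -1.01, is the only one outside the lines.

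Length of the coding sequence went with level among the members, whole transcript length hardly at all. Spearman's rho of mean FPKM over the 51 members was 0.375 with coding length and 0.134 with the length of the canonical transcript. It was 0.155 and 0.126 over the 10347 named protein-coding genes with at least 1 FPKM in both libraries. The members were not filtered in this way, so RPA3 counts among them here and in the shares below. For 3′ UTR length rho was -0.0784 and for the GC content of the transcript 0.0622 among the members. These correlations are across genes of the same 2 libraries, which share depth and transcript models, and are given as a description. Of the 17 members with fewer than 1000 coding bases, a limit chosen after the values were seen, 13 (76.5%) were below 10 FPKM and 2 (11.8%), POLE3 and PCNA, were above 30, against 67.6% and 12.1% of the named protein-coding genes as short. Of the 34 longer ones, 12 (35.3%) were below 10 and 9 (26.5%) above 30, against 58.8% and 14.2% of the longer named genes. The share of short members above 30 was thus near that of other short genes. The median was 4.91 FPKM in the 17 short members against 12.7 FPKM in the 34 long ones. The same split gave 5.58 FPKM against 7.48 FPKM for the named protein-coding genes. Without POLE3, rho with coding length was 0.447.

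For reference, the mRNA of LRPPRC itself had 184 and 176 FPKM, near POLE3. The label of A549 as epithelial was checked against markers. The keratins KRT8, KRT18, KRT7 and KRT19 had means between 12.1 and 337 FPKM, whereas CDH1 had 1.33 FPKM and EPCAM 0.430 FPKM. Of 7 markers of blood, endothelium, fibroblasts and liver, 4 had a row, at no more than 0.696 FPKM.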

How the data were processed

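RIP-seq measured RNA that co-precipitated with LRPPRC in A549 cells, in 2 libraries. The authors deposited FPKM per gene and library. According to the study's methods and the submitters' processing notes, they trimmed adapters with cutadapt 1.18, mapped reads to GRCh38 using HISAT2 2.1.0, sorted them with SAMtools and used StringTie 1.3.3b with an Ensembl annotation. Libraries were made with a stranded kit (SMARTer Stranded Total RNA-Seq V2). The strand setting used in quantification was not given in the sources used here, so whether antisense reads were kept apart is unknown. Of the 21262 rows, 16802 carry a name and 4460 are assembled genes, which were left out. Where a name had several rows, the one with the higher mean was kept.

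The depth of the libraries is unknown. Among 3255 named genes with means below 0.3 FPKM, at most 47 (1.44%) shared a log2 library ratio within an interval of 0.02, so whole reads were not recovered and no counting interval was computed. All rows added up to 196627 FPKM in replicate 1, against 194839 in replicate 2.

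Means, SD, medians, ranges, counts above FPKM 30 and ratios were computed, and the scripts were tested on simulated data. Canonical transcripts are from GENCODE 44, which matched 16463 of the 16770 named genes. It is a later annotation than the authors', on the same assembly. All 51 members were reported, and at most the 3 highest genes of each comparison list were named. The overlapping genes were named after their values were seen. Members and lists were chosen with earlier results of these data known. Alternatives were other thresholds, single libraries, filters, pseudocounts, multiplication by transcript length and geometric means. Computation used numpy 2.4.6, scipy 1.17.1, pandas 2.3.3 and, for plots, matplotlib 3.10.9 under Python 3.11.15.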

Additional observations from a re-analysis of the deposited data

How the results depend on the processing

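Of 73 alternative values for 22 results, 45 stayed within 1.5 times for a count or within the spread between the libraries for another value. Of these 45, 35 were among the 38 values from single libraries. The single libraries also make up the reported value and its spread, so most of their values lay within it by construction. Only the correlation with length could change sign, and it did not. At FPKM 50, 4 of the 51 members were above the threshold instead of 11, against 6.89% of the named genes. At FPKM 20, 13 of the 51 were, against 21.1% of the named genes. The gap to the named genes was thus narrower at both than at FPKM 30. Over all named genes, without the filter, 8.46% were above FPKM 30. The median of the members with at least 1 FPKM in both libraries was 10.5, since RPA3 is left out. As geometric means, licensing had 6.84 FPKM, the firing kinase 6.49, the helicase 14.3, polymerases and primase 14.7, the clamp and loader 19.5 and single-strand binding 10.9, so that single-strand binding fell below the helicase and the polymerases, polymerases passed the helicase and licensing passed the firing kinase. With a single library the median of polymerases and primase was 11.7 or 12.0, and without POLE3 or without PRIM1, both chosen after seeing the data, 10.8. FPKM was also multiplied by the length of the canonical transcript. This undoes the division by length only where the authors' transcript models had that length. The highest subunit then exceeded the lowest by 51.1 times in ORC, 5.34 in GINS, 6.19 in DNA polymerase alpha-primase and 6.03 in delta. The range was 83.8 times in epsilon, 9.63 in RFC, 224 in RPA and 2.44 in RNase H2. At a limit below 1.5 times that was also tried, 2 members, PRIM1 and RPA3, differed between the libraries. Spearman's rho with length was 0.375 for coding length and, in alternatives chosen after seeing the data, 0.447 for coding length without POLE3 and 0.162 for transcript length without PRIM1, and 0.131 to 0.142 in single libraries. No member has several rows, so summing rows changed nothing. No paired analysis was possible because the series holds a single condition. Unknown depth limits what can be said of low values such as RPA3.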

Other observations

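Genes that supply nucleotides for DNA synthesis were listed beside the replication machinery, together with SLBP, which binds histone mRNA and supplies no nucleotides. Of these 15 genes, 3 (20%) had a mean above FPKM 30, against 13.6% of the named genes, and the median was 18.6 FPKM. RRM2 and RRM1, the subunits of ribonucleotide reductase, had 125 ± 0.216 FPKM and 81.4 ± 0.663 FPKM, and TYMS, thymidylate synthase, had 71.8 ± 1.22 FPKM (SD, n = 2 each). RRM2 was below POLE3 and above the other 50 replication mRNAs in both libraries.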
